A study of Mus musculus with 4 samples.

Results

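Cytotoxic effector Cd8 cells are the T cells of the pancreatic islets that carried Cd8 messenger RNA together with a set of killer cell genes. Members were chosen by measured UMIs: a cell was placed in the class when it had a UMI (unique molecular identifier, which counts 1 captured RNA molecule) of Cd8a or Cd8b1, none of Cd4 or Foxp3, and at least 3 of the 9 marker genes Ccl5, Nkg7, Gzmk, Gzma, Gzmb, Klrc1, Cst7, Ccl4 and Ctsw. The class held 252 of the 3809 cells kept in the series: 118 of 1934 at 16 weeks (6.10%) and 134 of 1875 at 8 weeks (7.15%). The other 188 and 147 Cd8-gated cells, with fewer than 3 of the markers, are the class they are set against.

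The islets came from pre-diabetic females of the NOD strain, in which autoimmune diabetes arises without any induced lesion, aged 16 weeks in 1 group and 8 weeks in the other. Live islet cells that bound an antibody to TCR beta were sorted, and each age gave 1 messenger RNA library and 1 receptor library made with droplet 5′ chemistry. The labels name no treatment and no engineered allele, and the number of animals pooled per age is not given in the sources used here. No age had a replicate library, so no difference was tested, every comparison of ages compares these libraries, and each 95% interval below covers counting error only.

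Cytotoxic Cd8 T cells recognise peptides shown on class I molecules and kill the cell that shows them, mainly by releasing perforin and granzymes from granules. In NOD islets, Cd8 T cells specific for beta cell proteins such as insulin and IGRP take part in the loss of insulin-producing cells. Cells that meet antigen for a long time take on inhibitory receptors such as PD-1, while cells that have not met antigen keep Lef1 and Ccr7, genes of naive and recirculating T cells.

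The receptor sequences are shown because the receptor libraries played no part in choosing the cells. An alpha chain joining TRAV16N to TRAJ42, a combination known from NOD islet Cd8 T cells that recognise IGRP, recurred in the class in both libraries with the same CDR3 bases (CDR3 is the loop that contacts the peptide). In the mm10 build TRAV16N lies on the plus strand of chromosome 14 at 53351028 to 53351621 and TRAJ42 on the same strand at 54175773 to 54175836, both in the T cell receptor alpha locus. Each sequence runs 5′ to 3′ from the conserved cysteine codon, and capitals mark bases that matched neither the germline V nor the germline J segment of the mm10 reference, which is a C57BL/6 genome. In beta chains these capitals can include the D segment.
TRAV16N–TRAJ42 alpha chain of 4 cytotoxic effector cells at 16 weeks and 5 at 8 weeks: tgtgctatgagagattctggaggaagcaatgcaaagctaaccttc
TRAV16N–TRAJ42 alpha chain of another cytotoxic effector cell, 8 weeks: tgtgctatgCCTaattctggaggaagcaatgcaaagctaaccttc
TRAV16N–TRAJ42 alpha chain of another cytotoxic effector cell, 16 weeks: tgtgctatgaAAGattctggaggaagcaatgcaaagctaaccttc
TRAV16N–TRAJ42 alpha chain of a Cd8-gated cell outside the class, 16 weeks: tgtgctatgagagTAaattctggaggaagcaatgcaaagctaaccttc
TRAV16N–TRAJ42 alpha chain of a Cd8-gated cell outside the class, 8 weeks: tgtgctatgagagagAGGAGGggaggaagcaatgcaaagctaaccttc
The shared chain had no base outside the germline segments: 14 bases matched V and the following 31 matched J. TRAV16, TRAV16N and TRAV16D are near-identical copies, so the choice among these names is uncertain and the 3 are counted together as the TRAV16 family below.

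The beta chains found with the shared alpha chain are shown because cells that share an alpha chain but not a beta chain are not 1 clone. TRBV13-3 lies on the plus strand of chromosome 6 at 41130147 to 41130585 and TRBV3 on that strand at 41048290 to 41048828 (mm10).
TRBV13-3–TRBJ2-4 beta chain of 3 cytotoxic effector cells, 8 weeks: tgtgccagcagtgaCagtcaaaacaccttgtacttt
TRBV13-3–TRBJ2-4 beta chain of 1 cytotoxic effector cell, 8 weeks: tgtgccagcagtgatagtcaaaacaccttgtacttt
TRBV13-1–TRBJ2-7 beta chain of 1 cytotoxic effector cell, 8 weeks: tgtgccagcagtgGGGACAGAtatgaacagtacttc
TRBV3–TRBJ2-7 beta chain of 1 cytotoxic effector cell, 16 weeks: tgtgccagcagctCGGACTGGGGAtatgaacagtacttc
TRBV3–TRBJ2-7 beta chain of 1 cytotoxic effector cell, 16 weeks: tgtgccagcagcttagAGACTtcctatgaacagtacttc
TRBV13-3–TRBJ2-7 beta chain of 1 cytotoxic effector cell, 16 weeks: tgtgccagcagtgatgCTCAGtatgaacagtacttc
Across both libraries the 9 cells with the shared alpha chain carried 7 beta chains, of which these are 6. No other Cd8-gated cell carried this alpha chain, but 3 cells of other classes did: a Cd4-gated cell and a cell with both Cd4 and Cd8 UMIs at 16 weeks, and a cell with a Foxp3 UMI at 8 weeks. The cell with both Cd4 and Cd8 UMIs had the same beta chain as a member, the second TRBV3–TRBJ2-7 chain above.

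The messenger RNA libraries held 8183747 UMIs in 2107 barcodes at 16 weeks and 8659371 UMIs in 2043 barcodes at 8 weeks. Kept cells had 500 or more genes and at most 10% mitochondrial UMIs, with median depths of 2930 and 2975 UMIs. Cytotoxic effector cells were deeper than the other Cd8-gated cells, with a median of 3654 against 3013 UMIs at 16 weeks and of 4312 against 2888 UMIs at 8 weeks. Since a marker is found more often in a deeper cell, the class was also drawn after thinning every cell to 1500 UMIs, leaving out shallower cells (1 cytotoxic effector and 5 other Cd8-gated at 16 weeks, 2 and 3 at 8 weeks). The libraries shared 5 barcodes, of which 2 belonged to a cytotoxic effector cell in either library.

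The share of Cd8-gated cells in the cytotoxic effector class was 38.6% at 16 weeks (Clopper-Pearson interval 33.1 to 44.3) and 47.7% at 8 weeks (41.7 to 53.7). The difference of -9.12 percentage points had a Newcombe interval of -17.0 to -1.11. After thinning, 75 of 284 cells at 16 weeks (26.4%) and 103 of 278 at 8 weeks (37.1%) met the rule, a difference of -10.6 points (-18.2 to -2.95), so the share was lower at 16 weeks at matched depth too. At least 3 of the markers were found in 9.86% of 649 Cd4-gated cells at 16 weeks and in 14.9% of 658 at 8 weeks, whose median depths were 3051 and 3205 UMIs, and in 5.35% and 6.32% of them after thinning. These shares give the level that the marker count reaches outside the Cd8 lineage.

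The markers that set the class are given as a description. Ccl5, a chemokine of effector and memory T cells, stood at 8852 CPM (UMIs of the gene per 1000000 UMIs summed over the class) in cytotoxic effector cells and 93.6 CPM in the other Cd8-gated cells at 16 weeks, and at 7545 against 6.35 CPM at 8 weeks. Gzmk, granzyme K, stood at 321 CPM against 0 at 16 weeks and at 314 against 2.12 CPM at 8 weeks, and Klrc1, the NKG2A receptor subunit, at 144 against 0 CPM in the 16-week library and 149 against 0 CPM in the 8-week one. A Ccl5 UMI was present in 77 of 118 cytotoxic effector cells at 16 weeks and in 99 of 134 at 8 weeks, against 7.55% and 8.97% of Cd4-gated cells. Gzmk was present in 47 and 59 cytotoxic effector cells, and Klrc1 in 34 in each library. Gzma and Gzmb, granzymes that also belong to the rule, were found in few cells. Gzma had 19 UMIs in 3 cytotoxic effector cells at 16 weeks and 216 UMIs in 13 at 8 weeks. Gzmb, granzyme B, had 14 UMIs in 8 cells and 113 UMIs in 12 cells. At 16 weeks 1 cell held 57.9% of the Gzma UMIs.

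The class was mixed. Exactly 3 markers were found in 49 of its cells at 16 weeks and 46 at 8 weeks, and in 36 and 28 of these the 3 were Nkg7, Ctsw and Cst7, genes that naive Cd8 cells also transcribe at low level. Just outside the threshold stood 91 and 82 cells with 2 markers, in 60 and 56 of them Nkg7 and Ctsw. Cells with 3 markers had 703 CPM of Ccl5 at 16 weeks and 1132 at 8 weeks, cells with 2 markers had 181 and 6.88 CPM, and cells with 6 markers had 15143 and 11262 CPM. Some genes that the rule did not use were graded too, though not at every step, and others were not. S100a6, a calcium-binding protein of activated T cells, stood at 117, 353, 669, 707 and 1458 CPM at 16 weeks in cells with 3, 4, 5, 6 and 7 or more markers, and at 737, 1100, 1780, 2919 and 3928 CPM at 8 weeks. Pdcd1, which encodes PD-1, stood at 31.4, 79.7, 69.7, 295 and 362 CPM at 16 weeks and at 75.4, 256, 396, 328 and 391 CPM at 8 weeks. Lef1, a nuclear factor that keeps T cells naive, ran the other way, with 444, 251, 223, 73.7 and 53.0 CPM at 16 weeks and 320, 125, 94.9, 87.8 and 55.8 CPM at 8 weeks. The inhibitory receptor gene Lag3 showed no such grading. It stood at 103, 365, 181, 302 and 150 CPM at 16 weeks and at 151, 250, 372, 185 and 134 CPM at 8 weeks. Cells with 2 markers had 50.9 and 182 CPM of S100a6, 12.7 and 41.3 CPM of Pdcd1 and 617 and 561 CPM of Lef1 at 16 and 8 weeks, so cells with 3 markers lay between these and the cells with 4 or more. At 16 weeks S100a6 stood at 117 CPM in the 30 cells with 0 markers and 67.1 CPM in those with 1, so cells with 3 markers had no more than cells with 0. At 8 weeks the values for 0 and 1 marker were 0 and 7.52 CPM. Median depth was 3470 and 3456 UMIs in cells with 3 markers and 6721 and 9835 UMIs in those with 7 or more, and its part in this grading was not tested.

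**Figure D1:**
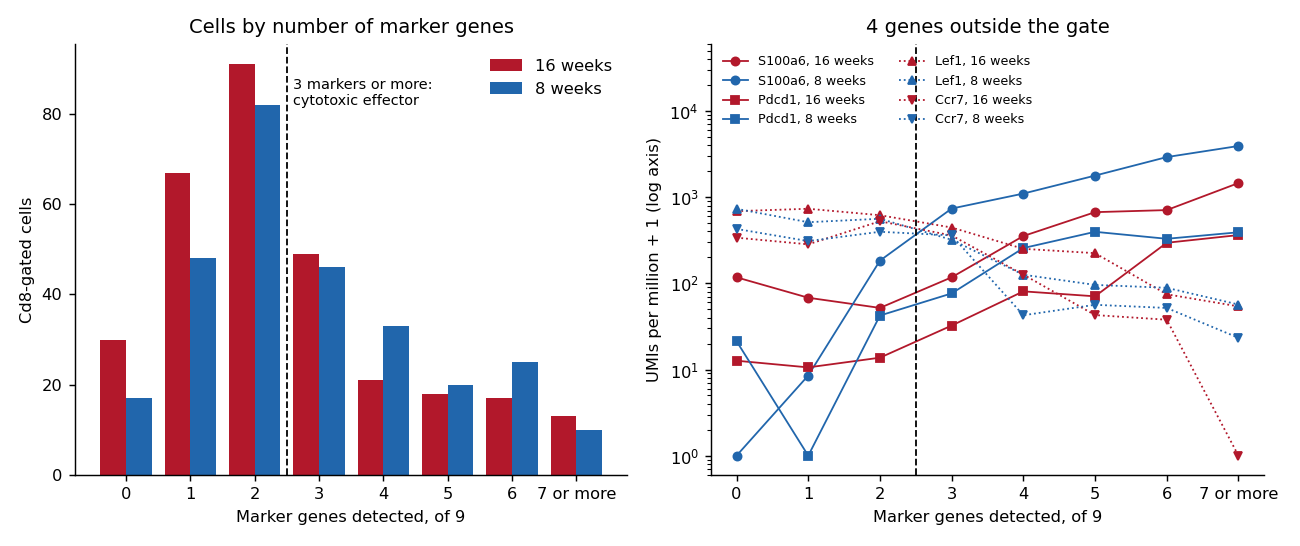
Left, Cd8-gated cells (vertical axis) by the number of marker genes detected (horizontal axis) at 16 and at 8 weeks, with the dashed line at the minimum of 3 that sets the cytotoxic effector class. Right, S100a6, Pdcd1, Lef1 and Ccr7 in CPM plus 1 (log axis) by the same number: in cells with 7 or more markers S100a6 reached 1458 and 3928 CPM, whereas Lef1 stood at 53.0 and 55.8 CPM.

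Members without a Ccl5 UMI, 41 at 16 weeks and 35 at 8 weeks, were closer to the other Cd8-gated cells in some genes but not in every gene. Pdcd1 was at 219 CPM in members with Ccl5 and 41.7 CPM in members without it at 16 weeks, and at 325 and 76.0 CPM at 8 weeks. Ccr7, the receptor that guides T cells into lymph nodes, was at 72.2 CPM with Ccl5 and 320 CPM without it at 16 weeks, and at 65.0 and 323 CPM at 8 weeks. The inhibitory receptor gene Lag3 differed less, at 212 CPM with Ccl5 and 176 CPM without it at 16 weeks, and at 232 and 152 CPM at 8 weeks. The chemokine receptor gene Cxcr3 was at 103 and 111 CPM at 16 weeks and at 182 and 90.2 CPM at 8 weeks. A single Cd8a or Cd8b1 UMI was the only lineage evidence in 9 and 7 cytotoxic effector cells. Results below that change without either set of cells are given in the closing section.

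The label was checked against genes outside the rule. Cd3e and Cd3g, subunits of the T cell receptor complex, were alike in both classes, with log2 ratios of 0.03 and -0.03 at 16 weeks and of -0.04 and -0.02 at 8 weeks. Prf1, perforin itself, stood at 45.9 CPM in cytotoxic effector cells and 47.6 CPM in the other Cd8-gated cells at 16 weeks, and at 37.5 against 31.7 CPM at 8 weeks. Its log2 ratios of -0.05 (-0.85 to 0.74) and 0.22 (-0.69 to 1.24) had intervals on both sides of 0, so the class did not stand apart in perforin. The name of the class rests on granzyme, chemokine and NK-type receptor genes that the rule itself used, which is no separate check. A UMI of Gzma, Gzmb or Gzmk was found in 48 of 118 members at 16 weeks and in 62 of 134 at 8 weeks. The sums of markers of other cells follow, and their part in the results was not tested. Acinar genes summed to 156 UMIs in cytotoxic effector cells against 64 in other Cd8-gated cells at 16 weeks, with 3 member cells at 10 or more, and to 50 against 42 UMIs at 8 weeks. The 10 islet endocrine genes summed to 6 against 2 and 5 against 4 UMIs, with Iapp at 0. The 11 myeloid and dendritic genes summed to 18 against 5 and 25 against 3 UMIs, with Csf1r, C1qa and Xcr1 at 0, and the 8 B cell genes to 28 against 32 and 50 against 16 UMIs, with Cd79a and Ms4a1 at 0. The 7 measured genes of NK, NKT and gamma-delta cells summed to 1 against 2 and 12 against 2 UMIs, with Tyrobp at 0. Of the 8 endothelial, stromal and erythroid genes, which summed to 11 against 40 and 9 against 25 UMIs, Cdh5 and Dcn were at 0 and Pecam1, which naive T cells also express, gave most. The 7 genes of the Cd4 lineage summed to 169 against 88 UMIs at 16 weeks and to 252 against 120 UMIs at 8 weeks, which is 268 against 144 CPM and 305 against 254 CPM. These were not low: the median log2 ratio of the 3 genes measured at 16 weeks was 0.88, and 1 of them was 2-fold higher. The list holds Ctla4, which the exhaustion list below holds too.

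Genes were compared between the classes within each library, by summed UMIs with 0.5 UMIs added to each sum, among genes with 20 or more UMIs over both classes and outside the rule. Because the rule read the same cells, these differences describe the class. At 16 weeks 493 of 5530 genes (8.92%) were at least 2-fold higher in cytotoxic effector cells and 170 (3.07%) at least 2-fold lower. At 8 weeks the counts were 545 (9.53%) and 250 (4.37%) of 5719 genes. Of the 5213 genes measured in both libraries, 222 (4.26%) were 2-fold higher in both, 48.4% of those higher at 16 weeks and 50.5% of those higher at 8 weeks, and 55 (1.06%) were 2-fold lower in both. Without cells in which 2 or more of 9 core division genes were found, 273 genes at 16 weeks and 265 at 8 weeks were 2-fold higher, and 148 were 2-fold lower at 8 weeks. The median log2 ratio of all genes was 0.15 at 16 weeks and 0.13 at 8 weeks, and list medians are read against it. A gene that is low in 1 class can pass the minimum of 20 UMIs only through the class where it is high, so the counts within lists describe the genes that passed and support nothing about the other list members.

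Inhibitory receptors and exhaustion genes were higher in cytotoxic effector cells. Of the list, 12 of 14 measured genes were 2-fold higher at 16 weeks and 11 of 12 at 8 weeks, with median log2 ratios of 2.70 and 2.25. Pdcd1 (chromosome 1, 94038305 to 94052553, minus strand, mm10) stood at 158 CPM (129 to 193) in cytotoxic effector cells and 11.5 CPM (4.62 to 23.7) in other Cd8-gated cells at 16 weeks. At 8 weeks it stood at 262 CPM (228 to 299) against 27.5 CPM (14.6 to 47.0), and the log2 ratios were 3.69 (2.69 to 5.14) and 3.20 (2.44 to 4.18). After thinning, 14.5% of cytotoxic effector cells at 16 weeks had a Pdcd1 UMI, against 1.64% of other Cd8-gated and 11.5% of Cd4-gated cells, and at 8 weeks 26.5%, against 2.78% and 19.0%. Unthinned, the shares were 30.5%, 3.72% and 21.7% at 16 weeks and 51.5%, 5.44% and 34.0% at 8 weeks. PD-1 transcripts were therefore found in a minority of the class at matched depth and were not confined to it. Lag3, an inhibitory receptor that binds class II molecules, stood at 200 against 14.8 CPM at 16 weeks and 212 against 33.8 CPM at 8 weeks, with log2 ratios of 3.68 (2.78 to 4.92) and 2.61 (1.91 to 3.48). Tigit, an inhibitory receptor for nectin family ligands, stood at 91.8 against 16.4 CPM at 16 weeks and, at 8 weeks, at 184 against 33.8 CPM. Cd4-gated cells carried both genes too. After thinning at 16 weeks, Lag3 was found in 21.4% of the class and 14.0% of Cd4-gated cells, and Tigit in 10.3% and 12.6%.

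Tox and Tox2, nuclear factors that support the exhausted state, were higher too. Tox stood at 146 against 29.6 CPM at 16 weeks and, at 8 weeks, at 142 against 55.0 CPM. Tox2 had 35 UMIs in cytotoxic effector cells against 1 at 16 weeks, and 55 against 1 at 8 weeks, with log2 ratios of 4.51 (2.5 to 10.42) and 4.40 (2.44 to 10.31). Cd38, an ectoenzyme that breaks down NAD, had 33 UMIs against 0 at 16 weeks, at least 10.6-fold higher when the 0 is set at 3 UMIs for the class, and 33 against 1 at 8 weeks. Not every inhibitory gene was alike in both libraries. Ctla4, which competes with CD28 for its ligands, had a log2 ratio of 1.79 (0.93 to 2.84) at 16 weeks and of 0.24 (-0.49 to 1.04) at 8 weeks. Havcr2, which encodes TIM-3 and marks late exhaustion, had only 12 UMIs in cytotoxic effector cells at 16 weeks and 4 at 8 weeks.

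Tcf7, the transcription factor of naive and stem-like T cells, differed less between the classes. Tcf7 stood at 143 CPM (115 to 175) in cytotoxic effector cells and 187 CPM (154 to 225) in other Cd8-gated cells at 16 weeks, and at 142 CPM (117 to 170) against 182 CPM (146 to 225) at 8 weeks. Its log2 ratios of -0.39 (-0.81 to 0.02) and -0.36 (-0.78 to 0.06) had intervals that reached 0. Slamf6, a surface receptor used to mark stem-like Cd8 cells, had ratios of 0.28 and 0.11, and Id3 had 0.09 and -0.29. By cells, 14 of the 118 at 16 weeks and 32 of the 134 at 8 weeks had UMIs of both Pdcd1 and Tcf7, while 22 and 37 had Pdcd1 without Tcf7. Another 38 and 31 had Tcf7 without Pdcd1, and 44 and 34 had neither. At these depths a missing UMI does not show that a gene was off.

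The genes of naive and recirculating T cells were lower in the class. Of 13 measured, 7 were 2-fold lower at 16 weeks and 9 at 8 weeks, none was 2-fold higher, and the medians were -1.06 and -1.15. Lef1 (chromosome 3, 131110471 to 131224356, plus strand) stood at 242 CPM (205 to 284) in cytotoxic effector cells and 667 CPM (603 to 735) in other Cd8-gated cells at 16 weeks, and at 156 CPM (130 to 186) against 565 CPM (499 to 637) at 8 weeks. Its log2 ratios were -1.46 (-1.74 to -1.19) and -1.85 (-2.17 to -1.55). Ccr7 stood at 157 against 415 CPM at 16 weeks and, at 8 weeks, at 131 against 374 CPM. S1pr1, which lets T cells leave tissue, had ratios of -1.41 and -1.06, and Klf2, which drives S1pr1, had -1.36 and -0.74. Il7r, the IL-7 receptor chain that sustains resting T cells, had -1.09 and -1.54. At 16 weeks 3 of the 13 had ratios above 0: Slamf6 and Id3, given above, and Bcl2, a survival gene, with 0.28 (-0.24 to 0.80), against -1.15 (-1.63 to -0.68) at 8 weeks.

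**Figure D2:**
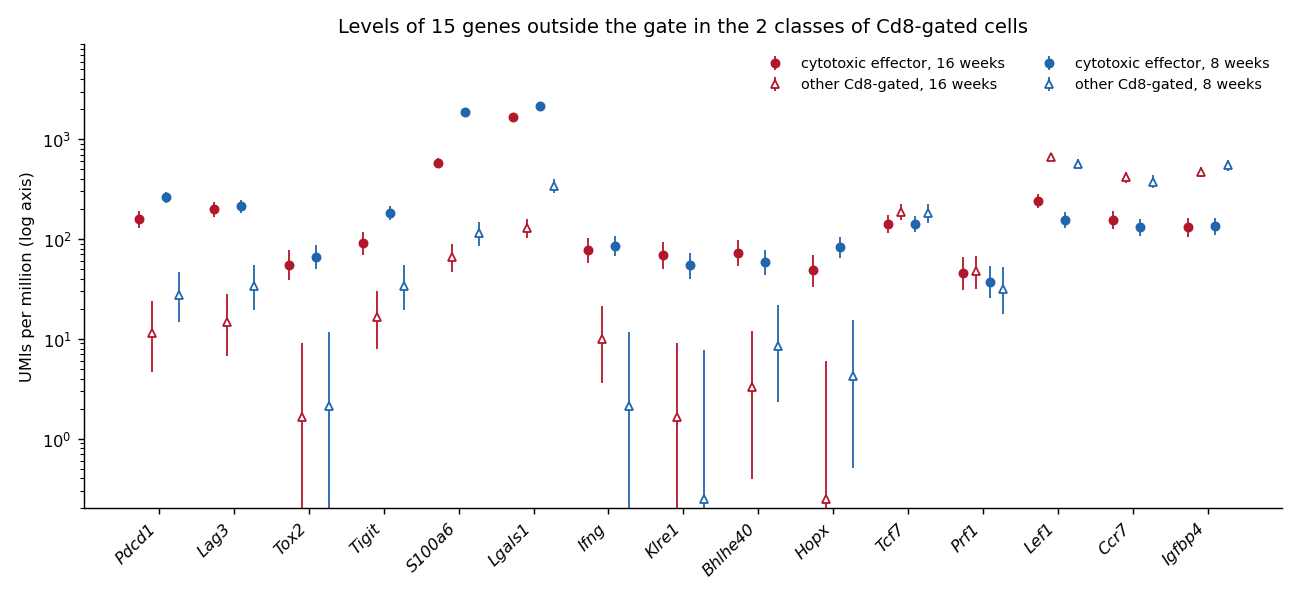
CPM (log axis) of 15 genes outside the rule in cytotoxic effector cells (filled circles) and other Cd8-gated cells (open triangles) at 16 weeks and at 8 weeks, with exact Poisson 95% intervals; a class with 0 UMIs is drawn near the lower edge of the axis. Pdcd1 through Hopx lie higher in cytotoxic effector cells in both libraries, Tcf7 and Prf1 overlap between the classes, and Lef1, Ccr7 and Igfbp4 lie lower.

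Several NK-type receptors outside the rule were higher in cytotoxic effector cells. Of the 14 genes of the list, 6 had enough UMIs to be compared at 16 weeks and 5 at 8 weeks, of which 5 of 6 were 2-fold higher at 16 weeks and 4 of 5 at 8 weeks, with medians of 2.87 and 2.09 when genes at 0 are set at their bound. The medians were 0.96 and 0.68 on sums thinned to equal depth and 1.06 and 0.83 with a minimum of 50 UMIs. Klrk1, which encodes the activating receptor NKG2D, had 43 UMIs in cytotoxic effector cells against 0 at 16 weeks and 40 against 0 at 8 weeks, at least 13.8-fold and at least 7.63-fold higher. Klre1, a lectin receptor that pairs with others of its family, had 44 UMIs against 1, a log2 ratio of 4.84 (2.85 to 10.74), and 45 against 0, at least 8.58-fold higher. Crtam, an adhesion receptor of activated Cd8 cells, had ratios of 3.05 (1.31 to 6.48) and 2.09 (0.75 to 4.2). Klrd1, CD94, the partner of the Klrc1 receptor, was carried by both classes, at 176 against 123 CPM in the 16-week library and 180 against 146 CPM in the 8-week one. Klrg1, a receptor of terminal effector cells, had 20 UMIs against 0 at 16 weeks and 6 against 0 at 8 weeks, and 1 cell held 35.0% of the 20.

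The killing machinery outside the rule was less separated, with medians of 0.29 and 0.66 and with 2 of 8 genes 2-fold higher at 16 weeks and 5 of 11 at 8 weeks. Srgn, serglycin, the proteoglycan that packs granzymes into granules, stood at 632 against 491 CPM at 16 weeks and, at 8 weeks, at 655 against 415 CPM. Stx11, a syntaxin needed for granule release, had 28 UMIs against 0, at least 9.0-fold higher, and 32 against 5. Fasl, the ligand of the death receptor Fas, had 14 UMIs against 0 and 15 against 2. Tnfsf10, which encodes the death ligand TRAIL, had ratios of 2.43 (0.85 to 5.01) and 1.31 (-0.15 to 3.46).

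Among effector transcription factors, 6 of 10 were 2-fold higher at 16 weeks and 8 of 13 at 8 weeks, with medians of 1.49 and 1.34. Eomes, a T-box factor of memory and exhausted Cd8 cells, stood at 152 CPM (123 to 186) against 26.3 CPM (15 to 42.7) at 16 weeks and at 102 CPM (81.1 to 126) against 10.6 CPM (3.43 to 24.7) at 8 weeks. Bhlhe40, which shapes the metabolism of tissue T cells, had ratios of 4.16 (2.54 to 7.56) and 2.65 (1.36 to 4.74). Hopx, a homeodomain protein of effector memory cells, had 31 UMIs against 0, at least 9.97-fold higher, and 69 against 2, a ratio of 3.99 (2.40 to 7.38). Batf, an AP-1 factor needed for effector differentiation, had 1.79 and 1.94. Runx3, which fixes the Cd8 lineage, was close to level at 0.18 (-0.38 to 0.74) and 0.39 (-0.21 to 1.05).

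Cytokine genes were uneven: 3 of 9 were 2-fold higher in each library, with medians of 0.44 and 0.36. Ifng, interferon gamma, stood at 77.6 CPM (57.4 to 103) against 9.85 CPM (3.62 to 21.4) at 16 weeks and at 86.0 CPM (67.1 to 108) against 2.12 CPM at 8 weeks, where the other Cd8-gated cells had 1 UMI. Ccl3, a chemokine that draws in other leukocytes, had 61 UMIs against 1 and 113 against 0, at least 21.6-fold higher at 8 weeks, and 1 cell held 29.5% of the UMIs at 16 weeks. Tnf was level between the classes, with ratios of 0.30 (-0.50 to 1.12) and -0.17 (-0.95 to 0.66). Ltb, lymphotoxin beta, was lower, with -0.62 (-0.77 to -0.46) and -0.73 (-0.89 to -0.57).

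Trafficking genes were mixed. Cxcr3, the receptor for chemokines that interferon gamma induces, stood at 106 against 19.7 CPM at 16 weeks and, at 8 weeks, at 159 against 27.5 CPM. Of the measured chemokine receptors, 2 of 4 were 2-fold higher and 1 was 2-fold lower at 16 weeks, and 4 of 4 were higher at 8 weeks, with medians of 1.66 and 2.27 with bounds. The lower one was Ccr9, a gut-homing receptor, with 5 UMIs against 29. Tissue residency genes were 2-fold higher in 4 of 9 in each library, with medians of 0.60 and 0.69. Rgs1, which dampens chemokine signals, stood at 394 against 107 CPM at 16 weeks and, at 8 weeks, at 505 against 97.3 CPM, and Rgs16, of the same family, at 215 against 18.1 CPM in the 16-week library and 280 against 19.0 CPM in the 8-week one. Itgae, CD103, which holds T cells in epithelium, was not higher, with -0.36 (-1.12 to 0.38) and -0.13 (-0.83 to 0.61), and Cd69, an early activation and retention marker, had -0.53 (-1.01 to -0.07) and 0.18 (-0.45 to 0.87).

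S100, annexin and galectin genes, many of which rise when T cells become effectors, were 2-fold higher in 8 of 14 at 16 weeks and 11 of 15 at 8 weeks, with medians of 1.17 and 1.61. S100a6 (chromosome 3, 90612882 to 90624181, plus strand) stood at 580 CPM (522 to 642) against 65.7 CPM (46.9 to 89.4) at 16 weeks and at 1889 CPM (1796 to 1985) against 114 CPM (85.8 to 149) at 8 weeks. Its log2 ratios were 3.13 (2.67 to 3.65) and 4.03 (3.66 to 4.47). Lgals1, galectin-1, stood at 1658 against 128 CPM at 16 weeks and, at 8 weeks, at 2142 against 343 CPM, with ratios of 3.69 (3.36 to 4.05) and 2.64 (2.41 to 2.88). Anxa2, a membrane-binding annexin, had ratios of 3.0 and 2.24.

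Glycolysis genes were modestly higher. All 10 measured had ratios above 0 in both libraries, 2 of 10 were 2-fold higher in each, and the medians were 0.84 and 0.63. Gapdh, the most abundant of those named here, stood at 1990 against 795 CPM at 16 weeks and, at 8 weeks, at 2298 against 903 CPM. Immediate early and heat shock genes were lower, with medians of -0.61 and -0.45. Hspa1b, an inducible heat shock gene that also answers to tissue dissociation and has a near-identical copy, so that its counts are uncertain, stood at 694 against 1302 CPM at 16 weeks and, at 8 weeks, at 528 against 884 CPM. Class I presentation genes (medians -0.01 and 0.01) and T cell receptor signalling genes (0.07 and 0.00) were level. Costimulation genes had medians of 0.51 and 0.23, actin cytoskeleton genes 0.40 and 0.47, cytokine receptors -0.21 and 0.55, and interferon response genes -0.46 and 0.17. Il10ra, a chain of the IL-10 receptor, was higher in both, with 1.63 (0.57 to 2.94) and 2.94 (1.27 to 6.34), and Il6ra, the IL-6 receptor, was lower, with -1.73 (-2.70 to -0.90) and -2.12 (-3.20 to -1.18).

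**Figure D3:**
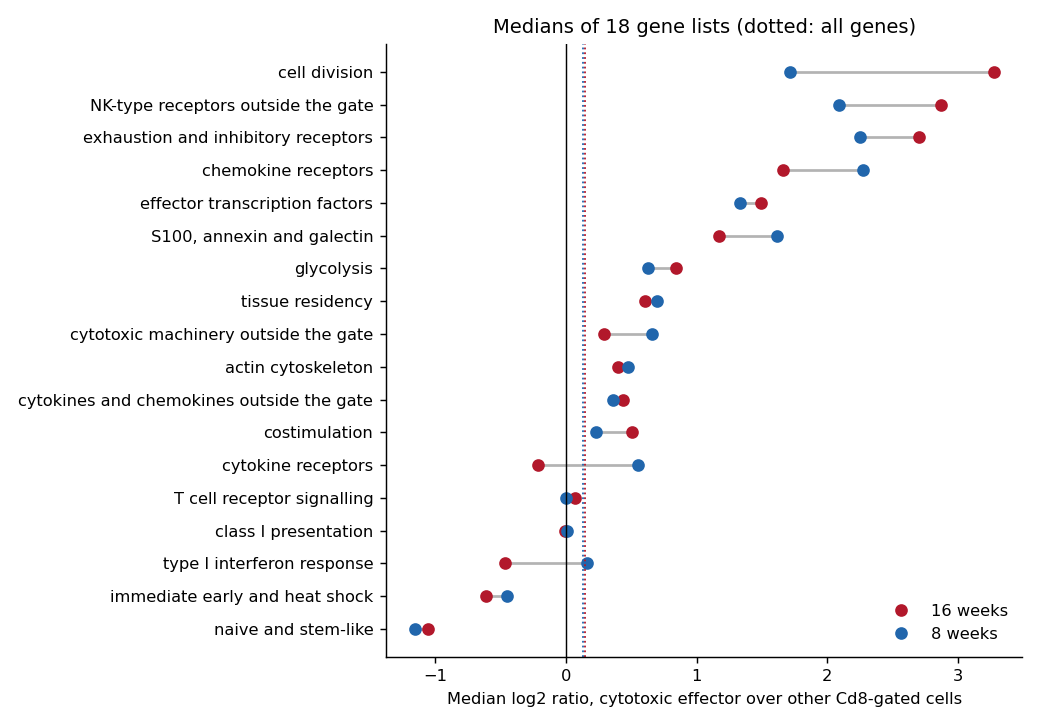
Median log2 ratio of cytotoxic effector over other Cd8-gated cells (horizontal axis) for 18 gene lists at 16 and at 8 weeks, with genes at 0 UMIs in a class set at their bound and dotted lines at the median of all genes. Cell division, NK-type receptors and exhaustion genes had the highest medians at 16 weeks, from 2.70 to 3.27, and the naive and stem-like list had the lowest in both libraries, -1.06 and -1.15.

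Cells with division genes were more frequent in the class than in the other Cd8-gated cells. At least 2 of 9 core division genes were found in 11 of 118 cytotoxic effector cells at 16 weeks (9.32%), against 0 of 188 other Cd8-gated cells, which allows a share of up to 1.60%, and in 25 of 134 at 8 weeks (18.7%), against 4 of 147 (2.72%). In Cd4-gated cells the shares were 6.47% and 9.27%. Of 15 measured division genes, 14 were 2-fold higher in cytotoxic effector cells at 16 weeks and 12 at 8 weeks, with medians of 3.27 and 1.71 with bounds. At 16 weeks 8 of the 15 had 0 UMIs in the other Cd8-gated cells and so passed the minimum only through the cytotoxic effector class, and on thinned sums the medians were 0.93 and 1.09. Birc5, survivin, had 75 UMIs against 0 at 16 weeks, at least 24.1-fold higher, and 137 against 28 at 8 weeks. Mki67, the proliferation antigen Ki-67, was found in 12 against 0 cells at 16 weeks and in 17 against 3 cells at 8 weeks. After thinning to equal depth it was found in 4.27% of cytotoxic effector cells, against 0 of 183 other Cd8-gated cells (up to 1.64%) and 2.20% of Cd4-gated cells, at 16 weeks, and in 3.79% against 1.39% and 3.63% at 8 weeks, so the classes were closer at matched depth. Stmn1, a microtubule regulator high in dividing cells, had 235 UMIs against 2 and 435 against 49, and 1 of the other Cd8-gated cells held 61.2% of those 49.

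Outside the lists, the rule for named genes added 4 genes among the 15 highest in both libraries. Ctla2a, a cysteine protease inhibitor first found in activated T cells, stood at 336 against 36.1 CPM at 16 weeks and, at 8 weeks, at 335 against 14.8 CPM. Bcl2a1d, a survival gene of the Bcl2 family with near-identical copies, so that its counts are uncertain, had ratios of 3.23 (2.04 to 5.03) and 3.41 (2.16 to 5.48). Gmnn and Mcm5, a regulator and a subunit of the DNA replication machinery, had 4.87 and 3.55 at 16 weeks and 4.07 and 3.51 at 8 weeks. Among the 15 lowest was Igfbp4, a binding protein of insulin-like growth factors, at 131 against 468 CPM in the 16-week library and 134 against 550 CPM in the 8-week one. Tsc22d3, a glucocorticoid-induced gene, had -1.40 (-1.79 to -1.04) and -1.48 (-1.88 to -1.09), and Pik3ip1, an inhibitor of PI3 kinase in resting T cells, had -1.87 (-2.76 to -1.10) and -2.09 (-3.35 to -1.02). Plaur, the urokinase receptor, had -1.47 (-2.36 to -0.69) and -2.62 (-3.59 to -1.81), and Pecam1, CD31, an adhesion molecule of naive T cells, had -2.0 (-3.22 to -1.03) and -2.17 (-3.51 to -1.06).

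Between the libraries, 111 of 6162 genes (1.8%) were 2-fold higher and 160 (2.6%) 2-fold lower in cytotoxic effector cells at 16 weeks than at 8 weeks, against 88 (1.78%) and 147 (2.98%) of 4937 genes in the other Cd8-gated cells. The median of all genes in the class was -0.04. The S100, annexin and galectin genes were lower together: all 15 had ratios below 0, 13 had intervals below 0 and 4 were 2-fold lower. Among all 6162 genes compared, 330 had intervals below 0. The list median was -0.46, against -0.33 in the other Cd8-gated cells. S100a6 was at 580 CPM in cytotoxic effector cells at 16 weeks and 1889 CPM at 8 weeks, a log2 ratio of -1.70 (-1.87 to -1.54), and S100a4 at 55.4 against 199 CPM, a ratio of -1.82 (-2.41 to -1.31). In the other Cd8-gated cells the same genes had ratios of -0.79 and -1.15. Lgals3, galectin-3, had -1.20 (-1.62 to -0.82) in the class and -2.63 in the other cells, so this difference between the libraries was seen in both classes. Anxa1 had 1 UMI against 29, a ratio of -3.91 (-9.82 to -1.88).

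The naive and stem-like genes leaned the other way in the class, with 12 of 13 above 0 and intervals above 0 for 5. Among all 6162 genes compared, 251 had intervals above 0. The list median was 0.39, against 0.03 in the other Cd8-gated cells. Lef1 had 0.63 (0.29 to 0.98) and Klf2 0.44 (0.20 to 0.68), while Tcf7 had 0.01 (-0.40 to 0.42). None reached 2-fold. Exhaustion genes had a median of 0.00 in the class, with 7 of 14 above 0 and 7 below it. Of the 14, 1 was 2-fold higher and 0 were 2-fold lower, with 0 intervals above 0 and 2 below it. Pdcd1 was at -0.72 (-1.08 to -0.38), Tigit at -1.0 (-1.46 to -0.56) and Lag3 at -0.09 (-0.43 to 0.25). The median of the exhaustion genes in the other Cd8-gated cells was -1.16, from low counts. Eomes was higher at 16 weeks, with 0.58 (0.14 to 1.02). Division genes had a median of -0.50, with 14 of 15 below 0, 11 intervals below 0 and 2 at least 2-fold lower. In the other Cd8-gated cells their median was -1.91, with 5 of 8 measured genes at least 2-fold lower. Top2a, a topoisomerase of dividing cells, had -1.10 (-1.77 to -0.50). The share of members with 2 or more of 9 core division genes was 9.32% at 16 weeks and 18.7% at 8 weeks, at unmatched depth. After thinning, Mki67 was found in 4.27% and 3.79% of members and Birc5 in 6.84% and 6.06%, so neither was found less often at 16 weeks. These are only 2 genes of the list, each found in few cells, and the part of depth in the lower list median was not tested. Of the rule's markers, Gzma had -3.09 and Gzmb -2.58 between the libraries, which rest on the few cells named above.

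**Figure D4:**
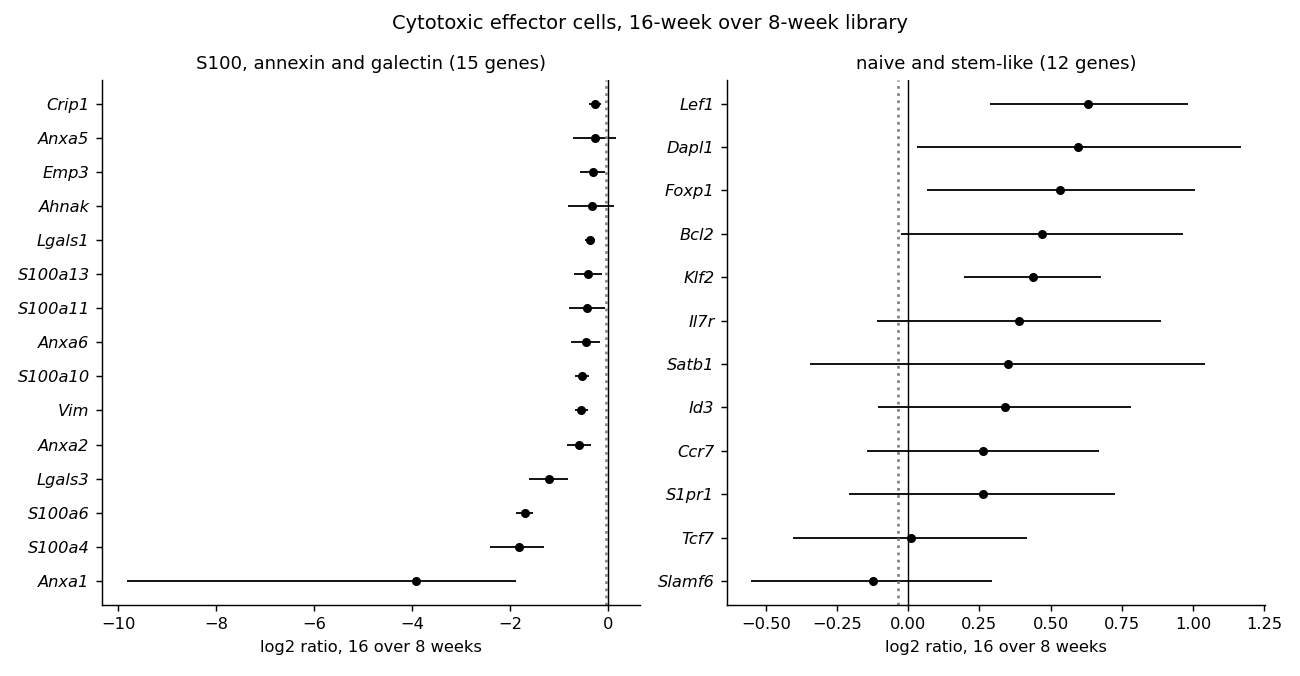
Log2 ratio of the 16-week over the 8-week library within cytotoxic effector cells (horizontal axes, with different ranges) for the 15 S100, annexin and galectin genes and 12 of the naive and stem-like genes, with exact 95% counting intervals and a dotted line at the median of all genes, -0.04. All 15 genes on the left lie below 0, and 11 of the 12 on the right lie above it.

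By the rule for named genes, the genes highest at 16 weeks were of low level. Ms4a4c, a membrane protein related to CD20, had 25 UMIs against 8, a ratio of 1.97 (0.84 to 3.39), and Snx10, a sorting nexin of the endosome, had 23 against 8, a ratio of 1.85 (0.70 to 3.28). Art2b, an enzyme that attaches ADP-ribose to T cell surface proteins, had 1.30 (0.26 to 2.47). Among the lowest were Nup85, a nuclear pore subunit, with 5 UMIs against 37, a ratio of -2.38 (-4.21 to -1.15), and Prc1, a protein of the dividing spindle, with 5 against 25, a ratio of -1.83 (-3.68 to -0.52). In the other Cd8-gated cells Nup85 had 1.32 and Prc1 -3.17. Differences of this size between 2 libraries have no replicate check.

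Receptor chains of both kinds were recovered for 89 of the 118 cytotoxic effector cells at 16 weeks (75.4%) and for 102 of the 134 at 8 weeks (76.1%), against 128 of 188 (68.1%) and 99 of 147 (67.3%) other Cd8-gated cells. Cells with the same V, J and CDR3 bases in both chains were counted as 1 clone over all kept cells of a library. In clones of 2 or more cells were 9 of 89 cytotoxic effector cells at 16 weeks (10.1%, 4.73 to 18.3) and 22 of 102 at 8 weeks (21.6%, 14.0 to 30.8). Of the other Cd8-gated cells there were 0 of 128 at 16 weeks, which allows a share of up to 2.34% by the limit of 3 cells (exact upper bound 2.84%), and 3 of 99 at 8 weeks (3.03%, 0.629 to 8.60). In Cd4-gated cells the shares were 10.8% of 502 paired cells and 22.5% of 507. In these libraries the share was higher in cytotoxic effector cells than in the other Cd8-gated cells, a difference that was not tested. It was close in percentage to that of Cd4-gated cells, of which far more were sampled. The shares were not adjusted for the number of cells in a class, so near-equal percentages do not show equal clonality. Only 1 cytotoxic effector cell, at 8 weeks, belonged to a clone that also held another Cd8-gated cell outside the class (0.980% of 102), and none did at 16 weeks.

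The clones were small. At 8 weeks the largest clone made only of cytotoxic effector cells had 5 cells, with TRAV16N joined to TRAJ40 and TRBV17 joined to TRBJ2-5. TRAJ40 lies on the plus strand of chromosome 14 at 54177921 to 54177981 and TRBV17 on the plus strand of chromosome 6 at 41163062 to 41163556 (mm10).
Alpha chain of the 5-cell clone, 8 weeks: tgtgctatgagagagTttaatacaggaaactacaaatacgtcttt
Beta chain of the 5-cell clone, 8 weeks: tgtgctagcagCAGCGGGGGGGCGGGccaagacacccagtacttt
A TRAV14N-1 clone of 4 cells at 8 weeks held 3 members of the class and 1 cell with a Foxp3 UMI. A TRAV21-DV12 clone of 14 cells held 12 Cd4-gated cells, 1 member and 1 cell without a lineage UMI, so a receptor does not fix the class to which the rule assigns a cell. At 16 weeks the largest clone with members had 3 cells, 2 of them in the class. Members in clones of 2 or more cells had a median of 5 markers, with Ccl5 in 7 of 9 at 16 weeks and in 19 of 22 at 8 weeks. Members in clones of 1 cell had a median of 4, with Ccl5 in 46 of 80 at 16 weeks and in 59 of 80 at 8 weeks.

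The TRAV16 family gave the alpha chain of 16 of 93 cytotoxic effector cells at 16 weeks (17.2%, 10.2 to 26.4) and of 25 of 105 at 8 weeks (23.8%, 16.0 to 33.1). Among other Cd8-gated cells it gave 13 of 135 (9.63%) and 10 of 106 (9.43%), and among Cd4-gated cells 22 of 533 (4.13%) and 16 of 537 (2.98%). These shares and intervals count each cell separately, also cells of 1 clone. Distinct pairs of alpha and beta chains numbered 15 and 19 in the class, 13 and 9 in the other Cd8-gated cells and 21 and 12 in Cd4-gated cells. At 8 weeks 5 of the 25 cells were the 5-cell clone. TRAV16 joined to TRAJ42 was found in 7 of the 93 cytotoxic effector cells at 16 weeks, a share of 7.53% (3.08 to 14.9), and in 7 of the 105 at 8 weeks, a share of 6.67% (2.72 to 13.3). It was found in 2 of 135 (1.48%) and 1 of 106 (0.943%) other Cd8-gated cells and in 3 of 533 (0.563%) and 1 of 537 (0.186%) Cd4-gated cells. The 7 class cells at 16 weeks held 7 distinct pairs of chains but only 6 distinct beta chains. The 7 at 8 weeks held 5 pairs, with 3 cells in 1 clone. A beta chain of these 8-week cells also occurred in a 2-cell clone with a TRAV15-2-DV6-2 alpha chain. All 14 alpha chains joining TRAV16 to TRAJ42 in cytotoxic effector cells had a CDR3 of 45 bases, whereas those of the 3 other Cd8-gated cells had 45, 48 and 48. The 9 cells with the shared alpha chain shown above had many markers, with medians of 6.5 among 4 cells at 16 weeks and of 6 among 5 cells at 8 weeks. Pdcd1 was found in 4 of 4 and 5 of 5 of them, Gzmk in 3 and 5, and Tcf7 in 1 and 4.

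**Figure D5:**
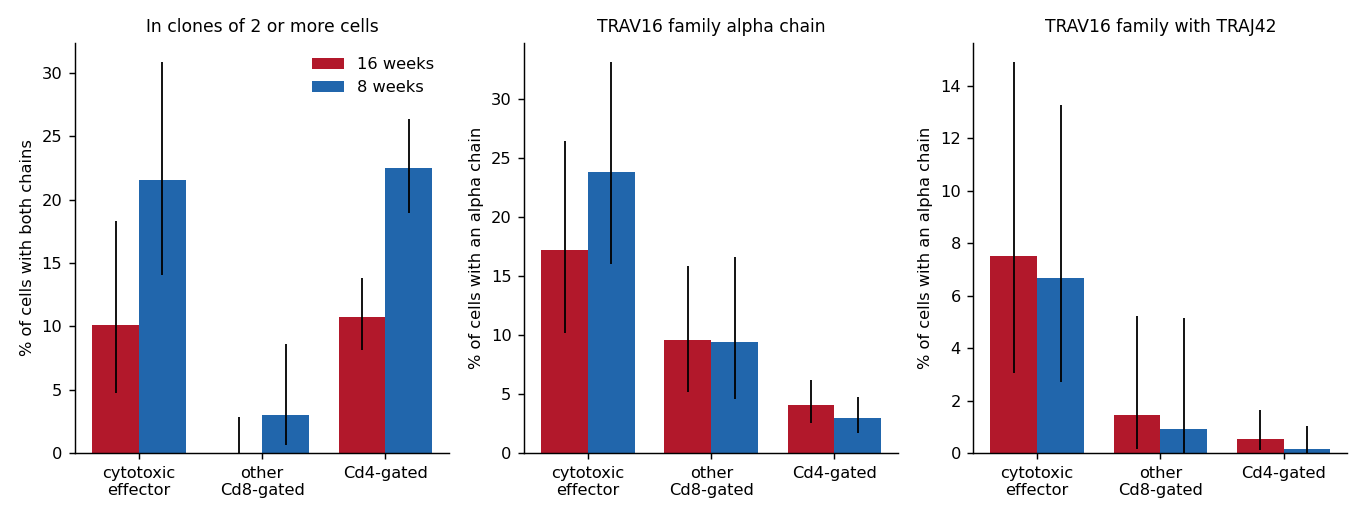
Share of cells (vertical axes, percent, with Clopper-Pearson 95% intervals) in clones of 2 or more cells, with a TRAV16 family alpha chain, and with TRAV16 joined to TRAJ42, for cytotoxic effector, other Cd8-gated and Cd4-gated cells at 16 and at 8 weeks. Counted by cell, with cells of 1 clone counted separately, cytotoxic effector cells had the highest shares of the TRAV16 family, 17.2% and 23.8%, and of TRAV16 with TRAJ42, 7.53% and 6.67%. In clones their percentages were close to those of the Cd4-gated cells, which rest on 502 and 507 paired cells against 89 and 102.

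Among beta chains, TRBV13-2 was used by 20 of 103 cytotoxic effector cells with a beta chain at 16 weeks (19.4%), against 32 of 160 other Cd8-gated cells, and by 10 of 120 at 8 weeks (8.33%), against 13 of 121 (10.7%). TRBV3 was used by 13 of 103 at 16 weeks (12.6%), against 11 of 160 (6.88%), and by 13 of 120 at 8 weeks (10.8%), against 10 of 121 (8.26%). TRBV17 was used by 3 of 103 (2.91%) against 5 of 160 (3.12%) at 16 weeks and by 9 of 120 (7.5%) against 1 of 121 (0.826%) at 8 weeks, where 5 of the 9 cells were the 5-cell clone. TRAV3-3 was used by 12 of 93 cytotoxic effector cells at 16 weeks (12.9%, 6.85 to 21.5) and by 3 of 105 at 8 weeks (2.86%, 0.593 to 8.12), against 10 of 135 (7.41%) and 9 of 106 (8.49%) other Cd8-gated cells. At least 2 productive beta chains, which can mark doublets, were found in 7 of 103 cytotoxic effector cells at 16 weeks (6.80%) and 15 of 120 at 8 weeks (12.5%), against 7.50% and 8.26% of other Cd8-gated cells. 1 clone was shared between the libraries, and it held only Cd4-gated cells.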

How the data were processed

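Female NOD islet T cells gave 1 messenger RNA and 1 receptor library at 16 weeks and at 8 weeks. The authors deposited raw UMI counts of 27998 genes in each barcode, without normalization, and contig tables with, per the file headers, the segments, the CDR3 bases and the UMI counts of each receptor chain. The submitters' processing notes name Seurat and the mouse build mm10; the aligner, its annotation and how barcodes were filtered were not given in the sources used here. Positions and germline segments came from GENCODE M21, an annotation of mm10.

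Cells with 500 or more genes and at most 10% mitochondrial UMIs were kept, no doublet caller was run, and receptor and RNA barcodes were joined within an age. UMIs were summed per class and scaled to the class sum (CPM, with exact Poisson 95% intervals). Sums were compared as log2 ratios with 0.5 UMIs added to each, and the interval of a ratio is exact, given the gene's total. A class at 0 UMIs was set at 3 UMIs for bounds. Genes with 20 or more UMIs over both sides were compared, and 2-fold was the size named. Intervals of shares are Clopper-Pearson, and those of their differences Newcombe. PCR and droplet losses are not covered by any of these. The code was tested on simulated data.

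The members, the 27 gene lists (324 of 331 entries found by symbol) and the rules were chosen with earlier results of these data known. Genes named are list members; the 15 highest and 15 lowest in both libraries by the smaller absolute ratio, with 30 or more UMIs in each and no cell holding 25% or more; and the 10 highest and lowest between ages, with UMIs in 8 or more cells. Receptor, ribosomal, mitochondrial, Gm-numbered, Rik and Xist genes were left out of the last 2 rules. Closing alternatives numbered 16, with 3 added after seeing the data. Python 3.11.15, numpy 2.4.6, pandas 2.3.3, scipy 1.17.1 and matplotlib 3.10.9 were used. Some list members are not reported here.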

Additional observations from a re-analysis of the deposited data

Results flagged for a closer look

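Among the named genes outside the rule, 4 had ratios of opposite sign under the same contrast whose counting intervals both left out 0, and none of these differences was tested. Xcl1, a chemokine that attracts cross-presenting dendritic cells, had a log2 ratio of 16 over 8 weeks of 0.49 in cytotoxic effector cells and of -3.57 in the other Cd8-gated cells, where it had 4 UMIs at 16 weeks and 41 at 8 weeks. A single cell held 39.6% of its UMIs in cytotoxic effector cells at 16 weeks, and another held 78.0% in the other Cd8-gated cells at 8 weeks. Cd5, which dampens T cell receptor signals, had 0.40 in cytotoxic effector cells and -0.61 in the other Cd8-gated cells for the same contrast. Ifngr1, the interferon gamma receptor chain, had a ratio of cytotoxic effector over other Cd8-gated cells of -0.55 at 16 weeks and of 0.55 at 8 weeks. Klf6, a zinc finger factor, had -0.48 and 0.51 for that contrast.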

How the results depend on the processing

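The 30 genes named between the classes and the 20 named between ages were picked for extreme ratios in these same cells. Kept direction under the alternatives is therefore no separate support for them. All 879 and 258 values that could be compared kept their direction, and 846 and 250 stayed past 2-fold. Values of genes that fell under the UMI minimum in an alternative are not counted. Of the main results, 285 values stayed close, 62 moved and 1 changed sign; causes were not tested beyond what each alternative removes. Values are for 16 weeks and then 8 weeks unless named. The class's share of Cd8-gated cells was 68.3% and 76.9% with a minimum of 2 markers, 22.5% and 31.3% with 4, 26.4% and 37.1% on thinned cells, 29.1% and 40.2% without members lacking Ccl5 (added after seeing the data), and 55.6% at 8 weeks with both Cd8 genes required. The share of members in a clone with other Cd8-gated cells at 8 weeks, which rests on 1 cell, was 0 with 2 markers, with 800 genes and 5% mitochondrial UMIs, and without members lacking Ccl5, and 5.80% with 4 markers. Genes 2-fold higher and lower numbered 206 and 113 at 16 weeks, 189 and 92 at 8 weeks and 56 and 55 between ages on thinned sums, of 2601, 2514 and 1767 genes compared; 180 and 44, 224 and 60, and 6 and 20 with a minimum of 50 UMIs, of 2857, 3086 and 3427; and 2469 and 1269, 1752 and 1452, and 1453 and 1499 with none, of 11426, 11615 and 11735. Without cells with 3 or more division genes they were 171 and 113 and 137 and 90, with 72 lower between ages; without cells with 2 or more of 9 core division genes (added), 273 and 265 were higher and 148 lower at 8 weeks. With cells weighted equally 229 were higher and 257 lower between ages, and with 4 markers 290 were lower at 16 weeks. The naive median at 16 weeks was -0.57 with 2 markers, -1.44 with 4, -0.67 without dividing cells and -1.55 without members lacking Ccl5. On thinned sums the medians were 0.84 for the S100 list at 16 weeks, 0.96 and 0.68 for NK-type receptors, and 0.93 and 1.09 for division genes. NK-type receptors had 1.06 and 0.83 at 50 UMIs and 1.21 and 0.94 without dividing cells, where the S100 list had 0.67 and effector transcription factors 0.65 at 16 weeks. Division genes had 0.060 and -0.15 without cells with 3 or more of them, which removes those genes by construction, 0.43 and 0.19 without the core-gene cells, and at 8 weeks 0.56 with 2 markers and 2.85 without the top cell of each gene. No paired analysis was possible because each age has 1 library of each kind. Genes with few UMIs are limited by depth: a class of these sizes with 0 UMIs is bounded only at 3.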

Other observations

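Cells just outside the rule add to the picture of the class. Among kept cells with no UMI that placed them in a lineage, 47 of 720 at 16 weeks and 80 of 654 at 8 weeks had 3 or more of the 9 markers, and these cells stood outside the class whatever their lineage. Ifi27l2a, an interferon-induced gene, stood at 1001 CPM in cytotoxic effector cells against 491 CPM in other Cd8-gated cells at 16 weeks and, at 8 weeks, at 1470 against 1007 CPM. The interferon response list was mixed, with median log2 ratios of -0.46 and 0.17. At 16 weeks 6 of 9 measured genes were below 0, with 2 at least 2-fold higher and 1 at least 2-fold lower. At 8 weeks 5 of 9 were above 0, with 0 at least 2-fold higher and 1 at least 2-fold lower. Fyn, a Src family kinase close to the T cell receptor, had log2 ratios of 1.40 (0.78 to 2.08) at 16 weeks and 1.13 (0.49 to 1.86) at 8 weeks, beside list medians of 0.07 and 0.00 for receptor signalling genes.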
